A study of Mus musculus with 44 samples.

Results

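The Wnt ligands, the Frizzled receptors and the secreted proteins that bind them were followed in left ventricle of 44 mice on Affymetrix 430A 2.0 arrays. The set was defined by gene symbol: every Wnt, Fzd and Sfrp gene of the array's annotation, joined by Frzb, Wif1, Dkk1, Dkk2, Lrp5, Lrp6, Dvl1, Dvl2, Axin1, Axin2, Ctnnb1, Lef1 and Tcf7l2. Of the 12394 genes measured, 45 belong to it: 19 ligands, 9 receptors, 2 co-receptors, 8 secreted modulators, 5 cytoplasmic relay proteins and 2 nuclear factors. Tcf7 and Fzd10 have no probe set that carries their symbol alone and were not analysed here. No filter on low values was used, so all 45 genes were tested.

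Wnt proteins are lipid-modified secreted ligands that bind Frizzled receptors on nearby cells. In the canonical branch, which also needs the co-receptors Lrp5 and Lrp6, Dishevelled (Dvl) proteins inactivate the Axin complex, beta-catenin (Ctnnb1) accumulates and enters the nucleus, and it works there with factors of the TCF/LEF family. Other Wnts, with Wnt5a as the usual example, act through beta-catenin-independent branches on cell polarity and calcium. Secreted Frizzled-related proteins (Sfrp1, 2, 4 and 5, and Frzb) carry a Frizzled-like ligand-binding domain, Wif1 binds Wnt ligands as well, and the Dickkopf proteins Dkk1 and Dkk2 bind Lrp5 and Lrp6. In the heart, the pathway is quiet in the healthy adult and is studied in injury, hypertrophy and fibrosis.

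The study crossed a transgene with an antibody treatment. The transgenic mice (PKCε) expressed a constitutively active form of rabbit PKCε in cardiomyocytes, from the mouse Myh6 promoter, on the FVB/N strain background, and nontransgenic FVB/N mice were the controls. From 3 months of age, mice of both kinds were injected intraperitoneally for 3 months, 2 times a week, with 30 mg/kg of nonimmune mouse IgG or of FG-3149, which is an antibody directed at CTGF (connective tissue growth factor, gene symbol Ccn2), and left ventricle was taken at 6 months. There were 10 IgG-treated FVB/N mice (7 females, 3 males), 12 FG-3149-treated FVB/N mice (6 and 6), 10 IgG-treated PKCε mice (5 and 5) and 12 FG-3149-treated PKCε mice (6 and 6), 1 array per mouse. All received an injected immunoglobulin, so no uninjected ventricle was measured. Values are log2 of the deposited ratio of an array to the median of the probe set, so 0 is the median array, a difference of 1 is a 2-fold change, and levels cannot be compared between genes. The number of arrays limits the precision. Unless stated otherwise, a change is the limma estimate with its standard error after a term for sex, and a gene is called at an adjusted p under 0.05 over all genes.

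The labels were checked against the arrays, and other tissue was measured on some of them. The probe set for Prkce was higher in PKCε than in FVB/N ventricle (0.49 ± 0.15 with IgG, 0.41 ± 0.13 with FG-3149) although the transgene is a rabbit sequence. Ccn2, which encodes CTGF, was higher with the transgene as well (0.74 ± 0.23 with IgG, 0.91 ± 0.20 with FG-3149). 1 array went against its label: FG-3149-treated FVB/N replicate 11, labelled female, had Xist near the female range (-0.71, other females from -0.20) and also had the Y-linked genes Uty (3.63), Eif2s3y (3.61) and Kdm5d (2.21) far above the other 23 females, at most 0.04, and just below the 20 males. It was kept, and results that change without it are given so. The mean log2 ratio of the atrial muscle genes Sln, Myl7 and Myl4 exceeded 4 on 10 arrays: 5 of the 10 IgG-treated FVB/N arrays, all of them from females, 1 FG-3149-treated FVB/N array, 2 IgG-treated PKCε arrays and 2 FG-3149-treated PKCε arrays. Markers of lung epithelium (Sftpc and Scgb1a1) were both above 3 on 2 arrays, IgG-treated PKCε replicates 9 and 10. Adipocyte markers were lower in IgG-treated PKCε than in IgG-treated FVB/N ventricle for 7 of 8 genes. The 15 fibroblast markers, counted without Sfrp2, were higher with the transgene for 12 genes with IgG and for 14 with FG-3149, and none was lower. Of 13 ventricular cardiomyocyte markers 6 were lower and 2 higher in both, and of 11 macrophage markers 2 were higher with IgG and 5 with FG-3149. Beside these counts, 20.7% of all genes were called higher and 21.5% lower with IgG, and 21.5% and 25.5% with FG-3149. Some of the marker counts, such as 2 of 11, lie near these shares. Because the samples are whole tissue, more cells of a type and more RNA per cell cannot be told apart. The difference between the 3′ and 5′ probe sets for Gapdh, a measure of RNA degradation, averaged 0.30 ± 0.25 (SD, n = 10) in IgG-treated PKCε mice against -0.04 ± 0.08, -0.13 ± 0.20 and 0.04 ± 0.11 in IgG-treated FVB/N, FG-3149-treated FVB/N and FG-3149-treated PKCε mice. The mouse numbers in the labels fall into runs. Each FVB/N group is 1 run of its own, so run and antibody cannot be told apart in FVB/N mice. In PKCε mice only the run from 190 to 196 holds both treatments, and its males all had IgG and its females FG-3149. The antibody therefore cannot be compared within 1 run and 1 sex of PKCε mice. No run holds mice of both lines, so run and transgene cannot be told apart in either transgene comparison.

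The members that rose with the transgene in both treatments were secreted Frizzled-like proteins, 2 Frizzleds and 1 Wnt ligand. Sfrp2, Frzb, Sfrp1, Fzd2, Fzd7 and Wnt2 were higher in PKCε than in FVB/N ventricle both with IgG and with FG-3149, 2 comparisons that share no arrays. Fzd4 was lower in both. The RefSeq promoter table (build GRCm38.p6) holds 4 of the 6 rising members. Their 250 bases before the transcription start are given because these genes moved together. The letters CTTTGA, 1 form of the core of TCF/LEF sites, or the reverse complement TCAAAG are set in capitals. The Sfrp2 window lies at chr3:83766071-83766320 (plus strand), Frzb at chr2:80447397-80447646 (minus), Fzd7 at chr1:59481897-59482146 (plus) and Wnt2 at chr6:18030446-18030695 (minus), each written 5′ to 3′ on the strand of its gene.
Sfrp2: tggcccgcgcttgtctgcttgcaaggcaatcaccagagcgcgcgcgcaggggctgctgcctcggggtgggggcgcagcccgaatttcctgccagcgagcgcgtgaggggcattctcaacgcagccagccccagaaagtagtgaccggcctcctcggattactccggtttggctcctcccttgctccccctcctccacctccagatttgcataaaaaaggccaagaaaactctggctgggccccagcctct
Frzb: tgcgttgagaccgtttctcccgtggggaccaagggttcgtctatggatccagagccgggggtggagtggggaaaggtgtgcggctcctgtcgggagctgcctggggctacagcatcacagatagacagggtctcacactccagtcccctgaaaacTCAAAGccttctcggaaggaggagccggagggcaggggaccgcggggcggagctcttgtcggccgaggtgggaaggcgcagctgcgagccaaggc
Fzd7: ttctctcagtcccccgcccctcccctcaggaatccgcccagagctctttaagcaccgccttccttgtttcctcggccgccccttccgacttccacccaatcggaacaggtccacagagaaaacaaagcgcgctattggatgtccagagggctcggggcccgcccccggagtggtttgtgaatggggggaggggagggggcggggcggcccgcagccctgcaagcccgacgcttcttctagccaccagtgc
Wnt2: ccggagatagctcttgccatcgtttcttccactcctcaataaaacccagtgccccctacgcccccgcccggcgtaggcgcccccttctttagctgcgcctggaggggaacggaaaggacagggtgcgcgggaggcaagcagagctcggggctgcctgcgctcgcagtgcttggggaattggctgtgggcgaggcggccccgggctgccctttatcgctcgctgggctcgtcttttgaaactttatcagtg
Of these 4 windows, Frzb holds the letters, 95 bases before the start. Other forms of the core were not searched for. The table matched 32 of the 45 genes with 40 promoters, and CTTTGA on either strand stands in 6 of the 40 (15%), against 13.8% of the 32851 promoters of the same length in the table. The other 5 are promoters of Dkk1, Fzd1, Lef1, Wnt11 and Wnt5b. A match is a description of letters and not a binding site. The median GC content was 66.6% in the windows of these genes and 52.4% over all windows.

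With IgG, 16 of the 45 genes were called between PKCε and FVB/N ventricle, 9 higher and 7 lower (35.6%), where 42.2% of all genes were called, 20.7% higher and 21.5% lower. With FG-3149, 18 were called, 10 higher and 8 lower (40%), where 47% of all genes were called, 21.5% higher and 25.5% lower. The shares of the members are below those of the whole array. With IgG, 15 members were called without the arrays with atrial markers and 12 without those with lung markers, and with FG-3149 17 and 19. Over all genes these fits called 4634 and 4256 with IgG, against 5235 on all arrays, and 5567 and 5889 with FG-3149, against 5830. Without FG-3149-treated FVB/N replicate 11, 13 were called with FG-3149 (5201 over all genes), and Dkk1, Lrp5, Wnt1, Wnt2b and Wnt8a were no longer among them. The median size of change, without regard to sign, was 0.13 over the 45 genes and 0.16 over all genes with IgG, and 0.12 and 0.15 with FG-3149. The 7 genes called in both comparisons, none in opposite directions, are 43.8% of the 16 and 38.9% of the 18, and over all genes the 3519 called in both are 67.2% and 60.4% of the 2 lists.

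**Figure D1:**
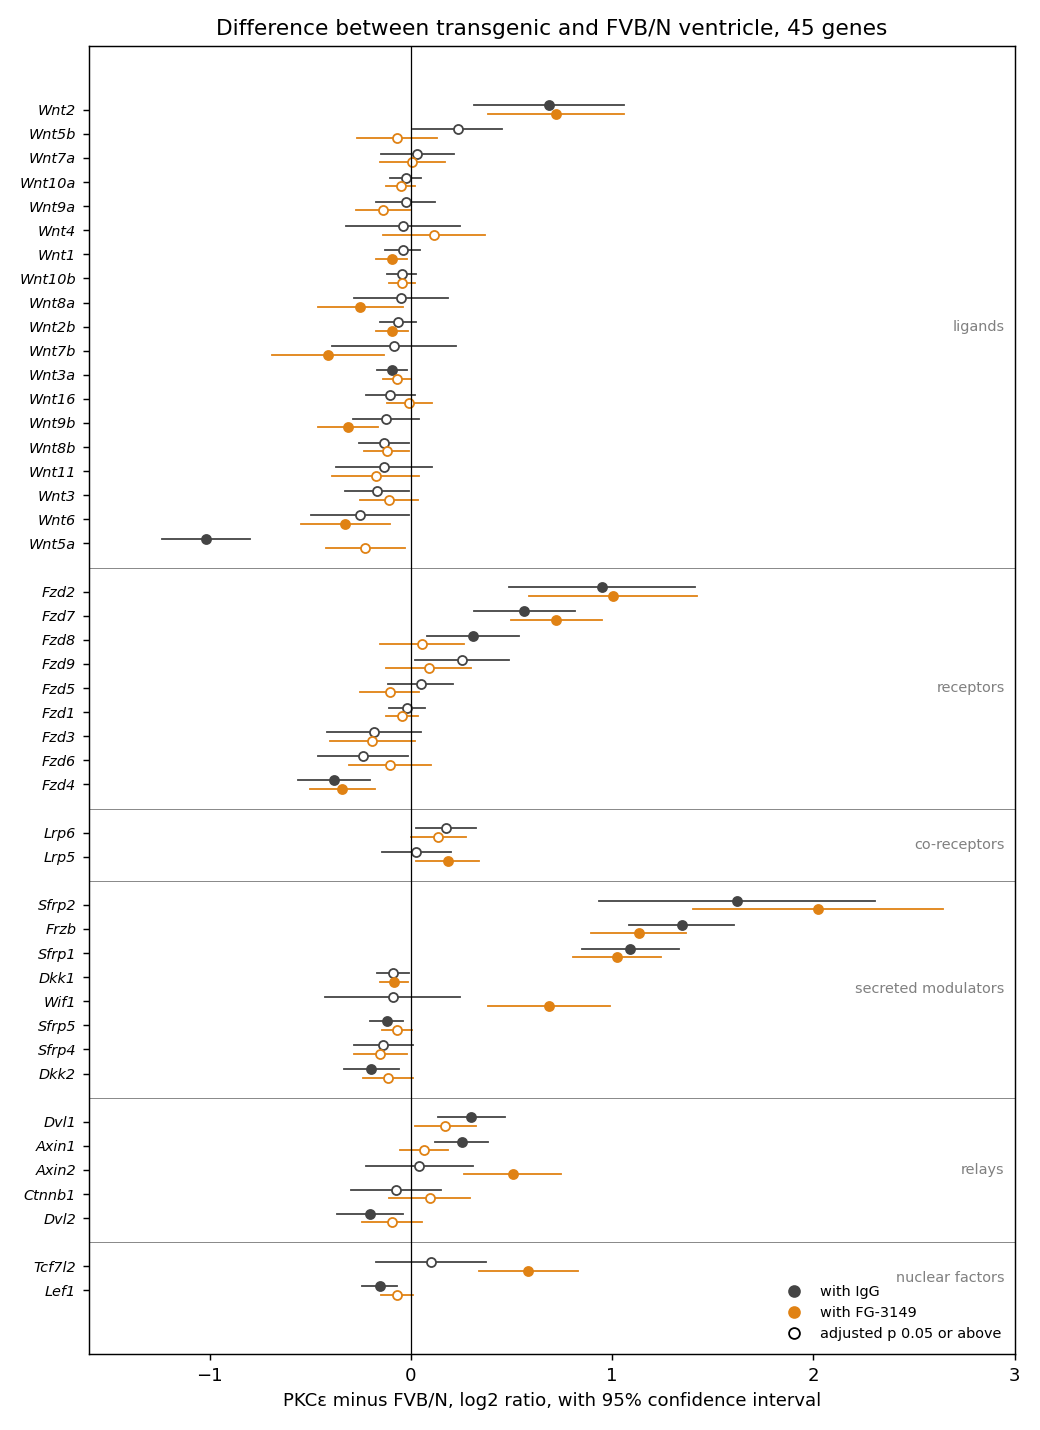
Difference between PKCε and FVB/N ventricle (log2 ratio) with its 95% confidence interval for each of the 45 genes, grouped by role, with IgG (dark) and with FG-3149 (orange). Filled points have an adjusted p under 0.05. The largest increases are those of Sfrp2, Frzb and Sfrp1 among the secreted modulators, and the largest decrease is that of Wnt5a with IgG.

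Among the secreted modulators, Sfrp2 had the widest range. It is a matrix-associated Frizzled-related protein made by fibroblasts and other mesenchymal cells. Its log2 ratio ran from -0.90 to 2.10 (median -0.00) in IgG-treated FVB/N mice, from -1.97 to -0.42 (median -0.98) in FG-3149-treated FVB/N mice, from -0.23 to 4.20 (median 1.23) in IgG-treated PKCε mice and from -0.29 to 2.23 (median 1.23) in FG-3149-treated PKCε mice. With IgG the groups overlapped, and with FG-3149 every PKCε array lay above every FVB/N array. Sfrp2 was 3.07-fold higher with the transgene under IgG (log2 1.62 ± 0.34, 95% interval 0.93 to 2.30, adjusted p = 0.000154) and 4.06-fold higher under FG-3149 (2.02 ± 0.31, 1.40 to 2.64, adjusted p = 9.57e-07). The highest array, IgG-treated PKCε replicate 9, is 1 of the 2 with lung markers, and without those 2 the change under IgG was 1.29 (adjusted p = 0.00197). In males alone, 3 FVB/N and 5 PKCε mice with IgG, it was 0.98 (adjusted p = 0.0951).

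Frzb, a Frizzled-related protein first described in cartilage, separated the lines in both comparisons. It ran from -0.75 to -0.01 (median -0.40) in IgG-treated FVB/N, from -0.83 to -0.35 (median -0.60) in FG-3149-treated FVB/N, from 0.25 to 1.97 (median 0.83) in IgG-treated PKCε and from 0.01 to 1.02 (median 0.51) in FG-3149-treated PKCε mice. No PKCε array reached down to a FVB/N array. The change was 1.34 ± 0.13 with IgG (2.54-fold, adjusted p = 3.12e-11) and 1.13 ± 0.12 with FG-3149 (2.19-fold, adjusted p = 2.30e-10). Its other probe set gave 1.04 and 0.90.

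Sfrp1, the first-named member of the same family, ran from -0.54 to 0.47 (median -0.28) in IgG-treated FVB/N, from -0.93 to -0.32 (median -0.63) in FG-3149-treated FVB/N, from 0.11 to 1.67 (median 0.76) in IgG-treated PKCε and from -0.11 to 0.69 (median 0.38) in FG-3149-treated PKCε mice. The groups overlapped with IgG through a single high FVB/N array, replicate 2, and did not overlap with FG-3149. The increase was 1.09 ± 0.12 with IgG (2.13-fold, adjusted p = 8.33e-10) and 1.02 ± 0.11 with FG-3149 (2.03-fold, adjusted p = 3.89e-10). All 4 of its probe sets rose in both comparisons, by 0.28 to 1.09 with IgG and by 0.24 to 1.02 with FG-3149. Wif1, a secreted protein that binds Wnt ligands, was called with FG-3149 (0.69 ± 0.15, 1.61-fold, adjusted p = 0.000295) and not with IgG (-0.09 ± 0.17, adjusted p = 0.676).

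The remaining secreted modulators changed little. With IgG, Dkk2 (-0.20 ± 0.07) and Sfrp5 (-0.12 ± 0.04) were lower. The call of Dkk2 was lost without the arrays with atrial markers (adjusted p = 0.0599), without those with lung markers (0.0773), with the Gapdh difference as a covariate (0.0643), with the run of mouse numbers as a random block (0.0915) and in each sex alone. That of Sfrp5 was lost with no term for sex (0.0599), with the run block (0.077) and in males alone. Dkk1, an inhibitor of the co-receptors, was lower with FG-3149 (-0.08 ± 0.04, adjusted p = 0.0480), a call that was lost without any of 24 single arrays. Sfrp4 was at -0.14 with IgG and -0.15 with FG-3149 and was not called in either.

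**Figure D2:**
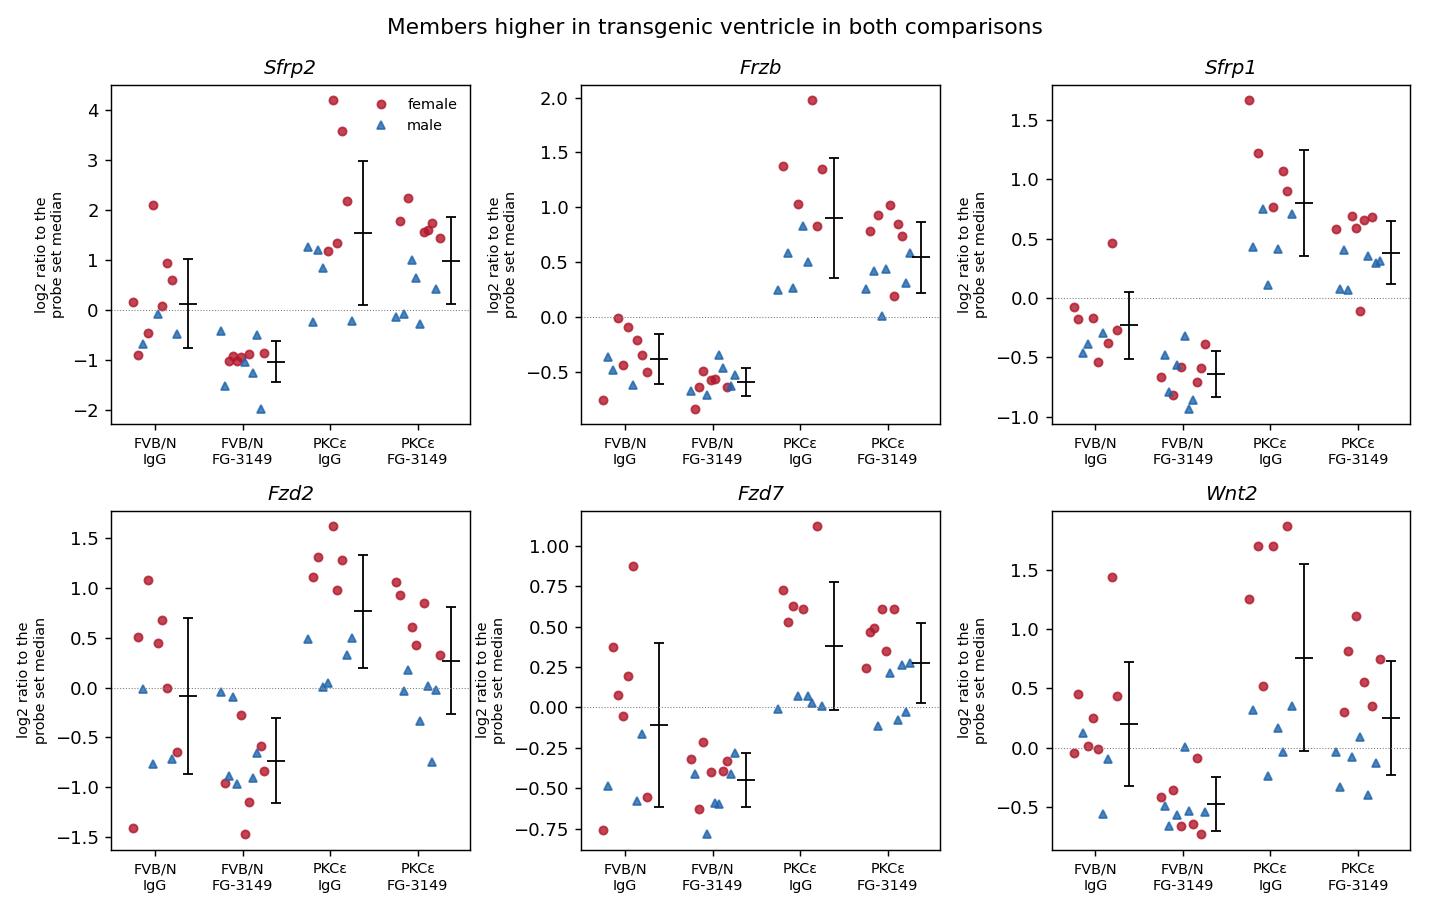
Log2 ratio to the probe set median on each array for the 6 members that were higher in PKCε ventricle in both comparisons, by group (10, 12, 10 and 12 mice), with females as circles and males as triangles and the group mean ± SD as a bar. Frzb shows no overlap between the lines in either treatment, and Sfrp2 in IgG-treated PKCε mice spreads from -0.23 to 4.20 with females above most males.

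Among the receptors, Fzd2 and Fzd7 rose. Fzd2 ran from -1.41 to 1.08 (median -0.01) in IgG-treated FVB/N and from 0.00 to 1.62 (median 0.74) in IgG-treated PKCε mice, and from -1.47 to -0.04 (median -0.86) and -0.75 to 1.06 (median 0.25) in the FG-3149-treated groups. The groups overlapped in both treatments. The change was 0.95 ± 0.23 with IgG (1.93-fold, adjusted p = 0.000844) and 1.0 ± 0.21 with FG-3149 (2.01-fold, adjusted p = 0.000134), and its other 2 probe sets rose by 0.58 to 0.90 and by 0.75 to 0.97. In males alone the change with FG-3149 was 0.43 (adjusted p = 0.112).

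Fzd7 ran from -0.76 to 0.88 (median -0.11) in IgG-treated FVB/N, from -0.79 to -0.21 (median -0.41) in FG-3149-treated FVB/N, from -0.01 to 1.12 (median 0.30) in IgG-treated PKCε and from -0.12 to 0.61 (median 0.27) in FG-3149-treated PKCε mice. The lines overlapped with IgG and were separate with FG-3149. The change was 0.56 ± 0.12 (1.48-fold, adjusted p = 0.00028) and 0.72 ± 0.11 (1.65-fold, adjusted p = 1.42e-06). Its 2 probe sets disagreed in direction: the other one gave -0.17 with IgG (adjusted p = 0.102) and -0.21 with FG-3149 (adjusted p = 0.0283).

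Fzd4, a receptor known for its part in vessel growth, was the member lower in both comparisons (-0.38 ± 0.09, 1.30-fold, adjusted p = 0.000598, and -0.34 ± 0.08, 1.27-fold, adjusted p = 0.000733). It ran from -0.07 to 0.62 in IgG-treated FVB/N and -0.60 to 0.16 in IgG-treated PKCε mice, and from -0.15 to 0.41 and -0.42 to 0.02 in the FG-3149-treated groups. The lines overlapped, with all 22 PKCε arrays below the median of the FVB/N group of the same treatment. Its other probe set was lower by less, at -0.18 and -0.11. Fzd8 was higher with IgG (0.31 ± 0.11, adjusted p = 0.0272), a call lost when FVB/N replicate 9 or PKCε replicate 7 or 9 was left out (adjusted p up to 0.0607), and also without the arrays with atrial markers (0.0777), without those with lung markers (0.101) and with the Gapdh difference as a covariate (0.122). The other 5 receptors (Fzd1, Fzd3, Fzd5, Fzd6 and Fzd9) lay between -0.24 and 0.25 with IgG and none was called. Of the co-receptors, Lrp5 was higher with FG-3149 (0.18 ± 0.08, adjusted p = 0.0476), a call that 23 single arrays end when left out, and Lrp6 was at 0.17 and 0.14 and was not called.

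Wnt2 was the ligand that rose. It is a canonical ligand known from early heart and lung development. Its log2 ratio ran from -0.56 to 1.44 (median 0.07) in IgG-treated FVB/N, from -0.73 to 0.01 (median -0.54) in FG-3149-treated FVB/N, from -0.24 to 1.87 (median 0.44) in IgG-treated PKCε and from -0.40 to 1.11 (median 0.20) in FG-3149-treated PKCε mice. All groups overlapped. The change was 0.69 ± 0.18 with IgG (1.61-fold, adjusted p = 0.00258) and 0.72 ± 0.17 with FG-3149 (1.65-fold, adjusted p = 0.000534). In males alone it was 0.29 with IgG (adjusted p = 0.276) and 0.32 with FG-3149 (adjusted p = 0.0929).

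Wnt5a went the other way and showed the largest fall of the set. In IgG-treated FVB/N mice it ran from 0.05 to 0.72 (median 0.55), and in IgG-treated PKCε mice from -0.94 to -0.15 (median -0.48), with no overlap. The fall was 2.02-fold (-1.02 ± 0.11, 95% interval -1.23 to -0.80, adjusted p = 3.96e-10). With FG-3149 it ran from -0.30 to 0.28 (median 0.07) and from -0.51 to 0.42 (median -0.24), the groups overlapped, and the difference of -0.23 ± 0.10 was not called (adjusted p = 0.0531). A second probe set for Wnt5a gave -0.86 with IgG and -0.28 with FG-3149 (adjusted p = 0.0235).

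The other 17 ligands differed by less. With IgG, Wnt3a (-0.09 ± 0.04, adjusted p = 0.0401) was lower, a call lost without any of 10 single arrays, and the 16 that were not called lay between -0.25 and 0.23. With FG-3149, Wnt7b (-0.41 ± 0.14), Wnt6 (-0.33 ± 0.11), Wnt9b (-0.31 ± 0.07), Wnt8a (-0.25 ± 0.10), Wnt1 (-0.09 ± 0.04) and Wnt2b (-0.09 ± 0.04) were lower. Of these 6 calls, those of Wnt1, Wnt2b and Wnt8a were lost when single arrays were left out (9, 17 and 15 arrays, adjusted p up to 0.108). That of Wnt7b was lost in each sex alone and with the run of mouse numbers as a random block (adjusted p up to 0.196). Wnt6 was not called in males alone or with that block (up to 0.556), nor Wnt9b in females alone (0.0585).

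Inside the cell, the relay proteins moved by less than 1.5-fold. With IgG, Dvl1 (0.30 ± 0.08, adjusted p = 0.00324) and Axin1 (0.25 ± 0.07, adjusted p = 0.00174) were higher and Dvl2 was lower (-0.20 ± 0.08, adjusted p = 0.0423). With the Gapdh difference as a covariate, Dvl1 was at 0.25 (adjusted p = 0.0532) and Axin1 at 0.19 (adjusted p = 0.0602). The call of Dvl2 was lost without any of 9 single arrays, and the other probe set of Axin1 was at 0.06. With FG-3149, Axin2, a gene that canonical signalling induces in many tissues, was higher (0.51 ± 0.12, 1.42-fold, adjusted p = 0.000651), while its other probe set was lower (-0.10, adjusted p = 0.0109). In males alone Axin2 was at 0.18 (adjusted p = 0.326). Ctnnb1, the gene of beta-catenin, was at -0.07 and 0.09 and was not called in either comparison.

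Of the nuclear factors, Tcf7l2 was higher with FG-3149 (0.58 ± 0.12, 1.5-fold, adjusted p = 0.000164). Among its other 3 probe sets, 1 was higher as well (0.33) and 2 lay at -0.00 and 0.07. In females alone Tcf7l2 was at 0.35 (adjusted p = 0.108). With IgG it was at 0.10 ± 0.14 and was not called. Lef1 was lower with IgG (-0.16 ± 0.04, adjusted p = 0.00329; with the Gapdh difference as a covariate -0.13, adjusted p = 0.0628) and at -0.07 with FG-3149.

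The fibroblast marker level went with Sfrp2, Frzb and Sfrp1 in most groups. The mean log2 ratio of the 15 markers was -0.25 ± 0.36 (SD, n = 10) in IgG-treated FVB/N, -0.63 ± 0.19 (n = 12) in FG-3149-treated FVB/N, 0.66 ± 0.36 (n = 10) in IgG-treated PKCε and 0.34 ± 0.32 (n = 12) in FG-3149-treated PKCε mice. Within the groups, in the same order, Pearson's r between that level and Sfrp2 was 0.89, 0.64, 0.87 and 0.76 (Spearman's rho 0.93, 0.74, 0.93 and 0.77, adjusted permutation p from 0.000747 to 0.0314 for r). For Sfrp1, r was 0.72, 0.56, 0.94 and 0.87, with an adjusted permutation p of 0.0794 in FG-3149-treated FVB/N mice and at most 0.0199 in the others. For Frzb, r was 0.72, 0.52, 0.87 and 0.95, and in FG-3149-treated FVB/N mice, where the adjusted permutation p was 0.0992, it fell to 0.15 without the 2 arrays farthest from the median marker level. Fzd1, a member called in neither transgene comparison, gave r of -0.77, 0.33, -0.14 and -0.24. Its adjusted permutation p was 0.0199 in IgG-treated FVB/N mice, where it went against the marker level, and at least 0.336 in the other groups. These are 16 relations, two-sided, with arrays of 1 group as points, and males and females are mixed within a group. The part of the marker level in the changes of the members was not tested.

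**Figure D3:**
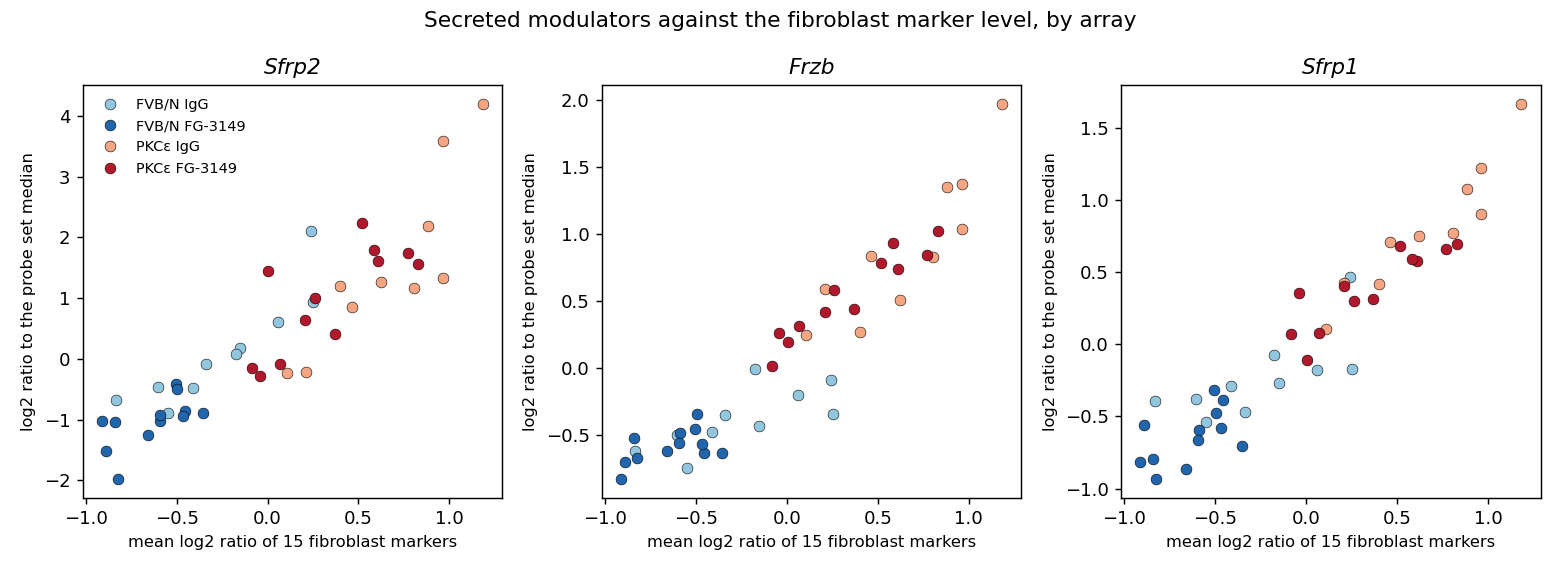
Log2 ratio of Sfrp2, Frzb and Sfrp1 on each of the 44 arrays against the mean log2 ratio of 15 fibroblast markers on the same array, coloured by group. Within most groups arrays with more fibroblast marker signal have more of the 3 transcripts, with r of 0.87 or above in IgG-treated PKCε mice for all 3.

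The genes whose residual pattern was most like that of Sfrp2 were ranked by correlation. Over the 22 PKCε arrays, after group and sex means were removed, the largest Pearson correlations of all genes were those of Fbln5 (0.92, Spearman 0.89), Ccn5 (0.91, 0.91), Klhl5 (0.89, 0.84), Ecrg4 (0.88, 0.82), Ogn (0.87, 0.84), Nox4 (0.87, 0.83), Reck (0.86, 0.83) and Abi3bp (0.86, 0.77). Fbln5, Ogn and Abi3bp encode matrix proteins, and Ccn5 is a relative of CTGF. Among the other members, Sfrp1 stood at rank 114 (0.71), Fzd7 at 221 (0.64), Frzb at 696 (0.50) and Fzd2 at 757 (0.48), while Wnt2 reached 0.28. The points share their libraries and the 2 arrays with lung markers.

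With the antibody, 6 members were lower and 0 higher in FVB/N ventricle (13.3% called, 10 members with an unadjusted p under 0.05 in either direction, where 9% of all genes were called, 4.43% higher and 4.57% lower). The 6 were Wif1 (-0.58 ± 0.16, 1.49-fold, adjusted p = 0.0166), Tcf7l2 (-0.55 ± 0.13, 1.47-fold, adjusted p = 0.00477), Wnt2 (-0.55 ± 0.18, 1.46-fold, adjusted p = 0.0439), Axin2 (-0.48 ± 0.13, 1.40-fold, adjusted p = 0.011), Wnt5a (-0.45 ± 0.10, 1.37-fold, adjusted p = 0.00374) and Sfrp1 (-0.36 ± 0.11, 1.28-fold, adjusted p = 0.0417). The 6 were picked by this comparison, so counts of their arrays are a description and not a further test. For 5 of them all 12 FG-3149-treated arrays lay below the median of the IgG-treated group, and for Tcf7l2 11 did. Sfrp2 was at -0.95 ± 0.33, all 12 arrays below that median, and was not called (adjusted p = 0.0581). It was called when any of 8 single arrays was left out, at an adjusted p down to 0.0235, and without the 2 arrays with lung markers (-0.97, adjusted p = 0.0277).

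In the same comparison all 5 atrial markers were lower (median change -4.00), as were 5 of 8 adipocyte markers, 4 of 15 fibroblast markers and 2 of 10 epicardial and mesothelial markers. Without the 10 arrays with atrial markers, which leaves 5 IgG-treated and 11 FG-3149-treated FVB/N mice, Wnt5a stayed called (-0.45, adjusted p = 0.0231) and the other 5 did not. Tcf7l2 was then at -0.56 (adjusted p = 0.0687), Wnt2 at -0.44 (0.406), Wif1 at -0.44 (0.284), Axin2 at -0.28 (0.484), Sfrp1 at -0.25 (0.496) and Sfrp2 at -0.61 (0.610). The calls of Sfrp1 and Wnt2 also ended when single arrays were left out, 16 arrays for Sfrp1 (adjusted p up to 0.112) and 11 for Wnt2 (up to 0.120), FG-3149-treated FVB/N replicate 11 among them (0.072 and 0.0861). With the Gapdh difference as a covariate Sfrp1 was at -0.35 (0.0555). The call of Wnt5a was lost in each sex alone and with the run of mouse numbers as a random block (adjusted p up to 0.256).

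In PKCε ventricle, 2 of the 45 members were called for the antibody (4.44%, where 8.82% of all genes were called, 5.08% higher and 3.74% lower). Sfrp1 was lower by 0.42 ± 0.11 on the log2 scale (1.34-fold, adjusted p = 0.0142), with all 12 FG-3149-treated arrays below the median of the IgG-treated group. Of its 4 probe sets, 2 were called lower (-0.42 and -0.36), and the other 2 were at -0.10 and 0.11. Wnt5a was higher by 0.34 ± 0.10 (1.26-fold, adjusted p = 0.0314), with 11 of 12 arrays above that median, while its other probe set was at 0.18 (adjusted p = 0.333). The call of Wnt5a was lost without IgG-treated PKCε replicate 3, 7 or 10 or FG-3149-treated PKCε replicate 5, 7 or 9, at an adjusted p up to 0.0754. Next in p were Wnt2 (-0.51 ± 0.18) and Frzb (-0.36 ± 0.12), both at an adjusted p of 0.0595, and Wnt5b (-0.28 ± 0.10) at 0.0871.

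Sfrp2 differed by -0.54 between FG-3149-treated and IgG-treated PKCε mice and was not called (adjusted p = 0.339). Both groups had the same median of 1.23, and the highest array belonged to the IgG group. Of the 15 fibroblast markers, 5 were lower in this comparison and none was higher, 4 of 13 ventricular cardiomyocyte markers were higher, and of 10 mural and smooth muscle markers 3 were higher and 1 lower. The part of these markers in the changes was not tested. Without the 2 arrays with lung markers, Sfrp1 was at -0.31 (adjusted p = 0.110) and Wnt5a at 0.30 (0.120). Without the arrays with atrial markers they were at -0.34 (0.0966) and 0.26 (0.114). With the Gapdh difference as a covariate they were at -0.41 (0.0694) and 0.35 (0.0834), and Wnt2 was called instead (-0.68, adjusted p = 0.0378).

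**Figure D4:**
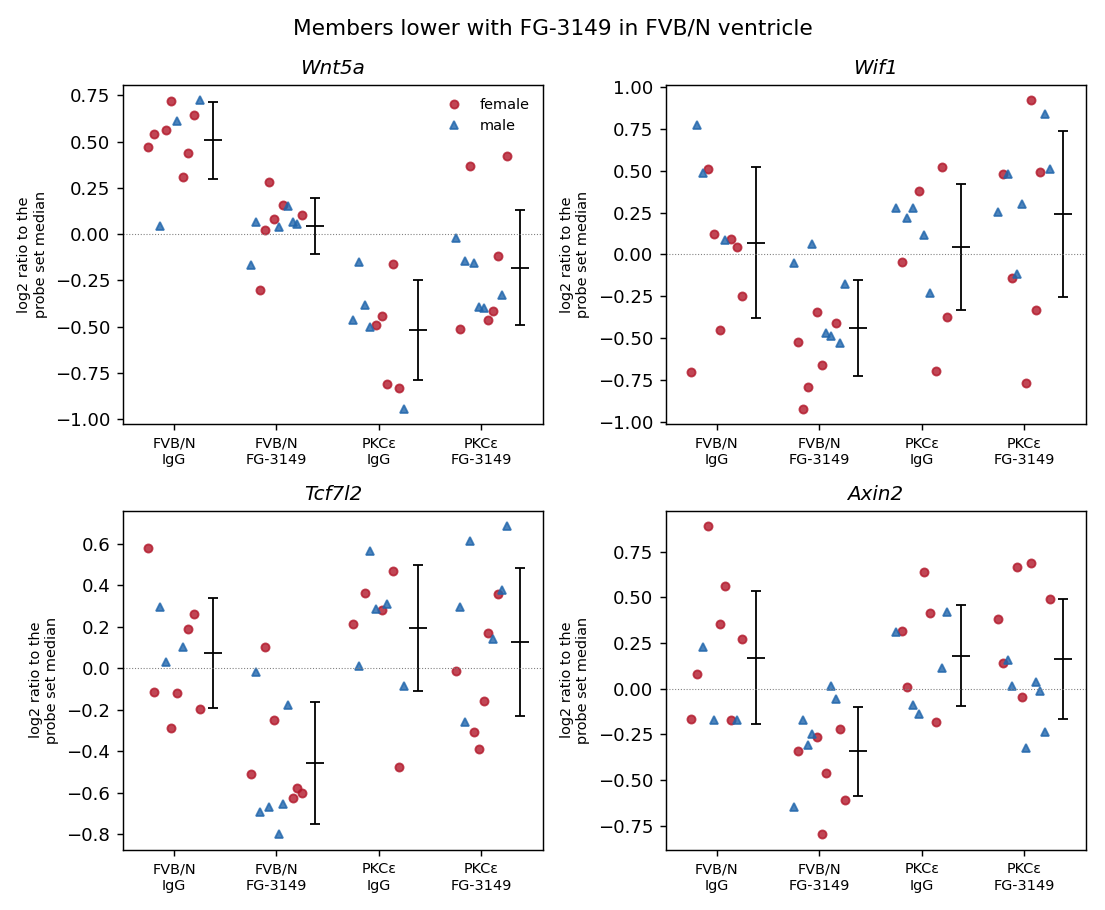
Log2 ratio to the probe set median on each array for Wnt5a, Wif1, Tcf7l2 and Axin2, by group, with females as circles, males as triangles and the group mean ± SD as a bar. All 4 are lower with FG-3149 than with IgG in FVB/N ventricle, and Wnt5a is higher with FG-3149 in PKCε ventricle, with group medians of 0.55, 0.07, -0.48 and -0.24 from left to right.

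Whether the antibody acted differently in the 2 lines was tested as the difference of the 2 antibody changes. It was called for 2 members (4.44%, both higher in PKCε, where 3.86% of all genes were called, 2.09% in that direction). For Wnt5a the difference was 0.79 ± 0.15 (adjusted p = 0.000518): the antibody change was -0.45 in FVB/N and 0.34 in PKCε ventricle. For Wif1 it was 0.78 ± 0.22 (adjusted p = 0.0398), from -0.58 in FVB/N and 0.20 in PKCε. The other probe set of Wnt5a gave 0.57 (adjusted p = 0.0241). The call of Wif1 was lost without any of 21 single arrays, without the arrays with atrial markers (0.55, adjusted p = 0.354) and without those with lung markers (0.65, adjusted p = 0.118). That of Wnt5a was kept when any single array was left out and was lost in males alone (adjusted p = 0.18). Tcf7l2 (0.48) and Axin2 (0.46) had adjusted p-values of 0.138 and 0.145. For Sfrp2 the difference was 0.40 and for Sfrp1 -0.06, and neither was called.

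With all groups fitted together, females had more of Sfrp2, Frzb, Sfrp1, Fzd2, Fzd7 and Wnt2, the 6 members that rose with the transgene. In FVB/N mice alone none of them was called, as given below. Across all groups, 9 members were called between the sexes (20%, where 15.8% of all genes were called, 8.67% higher and 7.12% lower). Higher in females were Sfrp2 (1.07 ± 0.23, 2.10-fold, adjusted p = 0.00127), Wnt2 (0.63 ± 0.13, 1.55-fold, adjusted p = 0.000549), Fzd2 (0.51 ± 0.16), Fzd7 (0.39 ± 0.08), Frzb (0.32 ± 0.09) and Sfrp1 (0.28 ± 0.08). Lower in females were Wif1 (-0.32 ± 0.11), Wnt9b (-0.17 ± 0.06) and Sfrp5 (-0.09 ± 0.03). The call of Wif1 was lost without any of 27 single arrays. FG-3149-treated FVB/N replicate 11, whose sex label is in doubt, is among them, and without it 8 members were called. Of the 15 fibroblast markers, 8 were higher in females and none was lower. Higher as well were 6 of 11 macrophage, 3 of 10 epicardial and mesothelial, 3 of 8 adipocyte and 2 of 8 lung epithelium markers, and 3 of 12 endothelial and 2 of 10 mural markers were lower. The part of these markers in the sex differences was not tested. After quantile normalization Fzd2 (0.39, adjusted p = 0.0558), Frzb (0.17, 0.0733), Sfrp1 (0.14, 0.136) and Wnt9b (-0.17, 0.139) were not called. The calls of Fzd2 and Wnt9b were also lost without the arrays with atrial markers (0.35, adjusted p = 0.192, and -0.12, 0.0903) and without those with lung markers (0.47, 0.0507, and -0.16, 0.0545), and that of Sfrp5 without those with atrial markers (-0.08, 0.117).

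By line, Sfrp2 averaged 2.50 ± 1.35 (SD, n = 5) in IgG-treated PKCε females and 0.57 ± 0.74 (n = 5) in males, and 1.73 ± 0.28 (n = 6) against 0.25 ± 0.51 (n = 6) with FG-3149. Of the IgG-treated PKCε females, replicates 9 (4.20) and 10 (2.19) carried lung markers and replicate 6 (3.58) atrial markers. The others, replicates 7 and 8, were at 1.34 and 1.17, where the males ran from -0.23 to 1.26. Among those males, replicate 5 (0.85) carried atrial markers. In FVB/N mice Sfrp2 averaged 0.36 ± 0.98 (n = 7) in females and -0.41 ± 0.30 (n = 3) in males with IgG, and -0.94 ± 0.07 (n = 6) and -1.12 ± 0.60 (n = 6) with FG-3149. With FG-3149, the lowest PKCε female (1.45) lay above the highest PKCε male (1.0). For Wnt2 the means were 1.41 ± 0.55 in females and 0.11 ± 0.25 in males in IgG-treated PKCε mice, and 0.65 ± 0.31 and -0.15 ± 0.19 with FG-3149. Wnt2 and Fzd2 ranges did not overlap between the sexes in either PKCε group. Overlap was not counted over all genes, so this describes picked members and is not a further test. In IgG-treated PKCε mice sex and the run of mouse numbers coincide. There Wnt2 was at 1.87 on replicate 9, with lung markers, and at 1.70 on replicate 6, with atrial markers.

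A comparison added after these values were seen tested females against males within each line. It was not refitted without the 2 arrays with lung markers, both from PKCε females. In PKCε mice 12 of the 45 members were called, 7 higher and 5 lower (23.1% of all genes called, 12.2% higher and 10.9% lower), and in FVB/N mice 1 was, Wnt5b (-0.38 ± 0.10, adjusted p = 0.0285, where 2.61% of all genes were called). Without the arrays with atrial markers Wnt5b was at -0.28 (adjusted p = 0.394). The members that rose with the transgene were not called in FVB/N mice. There Sfrp2 was at 0.47 (adjusted p = 0.539), Fzd7 at 0.28 (0.239), Wnt2 at 0.26 (0.473), Fzd2 at 0.15 (0.825), Sfrp1 at 0.13 (0.684) and Frzb at 0.04 (0.929). Without the arrays with atrial markers they were at -0.06, -0.06, 0.07, -0.28, -0.04 and -0.11 in that order, and none was called. Higher in PKCε females were Sfrp2 (1.70 ± 0.30), Wnt2 (1.04 ± 0.15), Fzd2 (0.92 ± 0.19), Frzb (0.62 ± 0.10), Fzd7 (0.53 ± 0.11), Sfrp1 (0.45 ± 0.11) and Fzd8 (0.38 ± 0.10). Lower were Wnt6 (-0.33 ± 0.11), Wnt3a (-0.13 ± 0.03), Sfrp5 (-0.13 ± 0.04), Dkk1 (-0.12 ± 0.03) and Wnt10b (-0.10 ± 0.03).

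The difference between the lines was tested itself. The sex difference in PKCε minus that in FVB/N was called for 0 members by limma on all 44 arrays (0.323% of all genes called) and 12 had an unadjusted p under 0.05. Lowest in p among the positive differences were Frzb (0.58 ± 0.15, adjusted p = 0.0752), Fzd8 (0.51 ± 0.14, 0.0911), Wnt2 (0.78 ± 0.21, 0.0911), Wnt5b (0.42 ± 0.14, 0.165) and Sfrp2 (1.22 ± 0.43, 0.186). Without the 10 arrays with atrial markers, 5 of which are IgG-treated FVB/N females, 9 members were called (11.5% of all genes called, 7.28% higher and 4.21% lower): Sfrp2 (1.63, adjusted p = 0.0202), Fzd2 (1.22), Wnt2 (0.99), Frzb (0.87), Fzd7 (0.62), Fzd8 (0.60) and Sfrp1 (0.57) higher, and Wnt6 (-0.57) and Dkk1 (-0.18) lower. That leaves 2 females and 3 males among the IgG-treated FVB/N mice.

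In the planned form of that test, the change with the transgene under IgG in females minus that in males, 0 members were called (0.0807% of all genes called) and 6 had an unadjusted p under 0.05. Without the arrays with atrial markers, Fzd7 (0.96 ± 0.20, adjusted p = 0.0076) and Frzb (1.12 ± 0.24, adjusted p = 0.0113) were called, where 2.77% of all genes were (343 genes, against 10 on all arrays). The antibody change in PKCε females minus that in males had 0 members called (0.0161% of all genes called) and 1 with an unadjusted p under 0.05. Among IgG-treated PKCε mice, sex and the run of mouse numbers coincide and cannot be told apart. In FG-3149-treated PKCε mice 1 run of numbers, 38 to 49, holds both sexes, and there Sfrp2 averaged 1.82 ± 0.39 (SD, n = 3) in females and 0.25 ± 0.51 (n = 6) in males. The lowest and the highest of these females (1.45 and 2.23) are replicates 7 and 9, both among the arrays with atrial markers above 4. In this run the sexes did not overlap for Sfrp2, Wnt2 and Fzd2. They overlapped for Fzd7, Frzb and Sfrp1 (Sfrp1 from -0.11 to 0.68 in females and 0.07 to 0.41 in males). Overlap was not counted over all genes, so these ranges are a description and not a further test.

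The wider pathway was read from 7 lists with 133 measured genes of 154. With IgG, 43 were higher and 27 lower in PKCε than in FVB/N ventricle, and with FG-3149 48 were higher and 23 lower. These are 32.3% and 36.1% higher, beside 20.7% and 21.5% of all genes, and the median changes were 0.00 and 0.06, beside -0.05 in both over all genes. In either direction 52.6% and 53.4% of the list genes were called, beside 42.2% and 47% of all genes. By list the share ran from 35.3% to 62.5% with IgG and from 40% to 70.8% with FG-3149, so the counts of several single lists lie near those of the whole array. The part of the fibroblast marker level in these changes was not tested.

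Among 31 reported Wnt target genes, 13 were higher and 4 lower with IgG, and 13 and 6 with FG-3149 (median changes 0.09 and 0.16). That is 54.8% and 61.3% called, beside 42.2% and 47% of all genes. With IgG, Sox9 (1.32 ± 0.16) and Twist1 (1.04 ± 0.11), transcription factors of mesenchymal cells, the growth factor Bmp4 (1.19 ± 0.15) and the cell cycle gene Ccnd1 (1.02 ± 0.13) rose. With FG-3149, Bmp4 (1.14 ± 0.13), Sox9 (1.09 ± 0.15), the Wnt inhibitor Apcdd1 (0.87 ± 0.12) and Ccnd2 (0.83 ± 0.09) rose. Most of these genes also respond to other pathways.

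Of 17 genes of ligand secretion and extracellular modifiers, 4 were higher and 2 lower with IgG and 6 and 3 with FG-3149. That is 35.3% and 52.9% called, beside 42.2% and 47% of all genes. The glypican Gpc4 (0.84 ± 0.10 and 1.11 ± 0.09) and the Lrp5/Lrp6 antagonist Sost (1.01 ± 0.27 and 1.23 ± 0.24) rose in both, Sost on 1 of its 2 probe sets. With the Gapdh difference as a covariate, Sost was at 0.69 with IgG and was not called (adjusted p = 0.0936). Of 10 further co-receptors and membrane regulators, 2 were higher and 2 lower (40% called), and 3 and 2 (50%), with the Wnt5a receptor Ryk higher in both (0.42 ± 0.09 and 0.38 ± 0.08). Of 24 further relay genes, 6 were higher and 5 lower (45.8%), and 6 and 4 (41.7%). There Nkd2, a Dishevelled-binding inhibitor, rose by 1.82 ± 0.21 with IgG, and Dact1, another Dishevelled-binding protein, by 1.12 ± 0.13 with IgG and 1.11 ± 0.12 with FG-3149. Nkd2 was lower with FG-3149 than with IgG in PKCε mice (-0.84 ± 0.20, adjusted p = 0.00619), on both of its probe sets.

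Of 20 nuclear partners, 8 were higher and 4 lower with IgG (60%) and 6 and 2 with FG-3149 (40%), among them Pygo2 (0.36 ± 0.06), Tle4 (0.28 ± 0.05) and Ctbp2 (0.25 ± 0.06). Of 24 genes of the planar polarity and calcium branch, 9 were higher and 6 lower (62.5%), and 12 and 5 (70.8%). The kinase gene Prkca (0.80 ± 0.09 and 0.69 ± 0.08) and Nfatc4 (0.62 ± 0.13 and 0.64 ± 0.11) rose in both. Of 13 genes in a list of cadherins and desmosome complexes, 2 were higher and 4 lower, and 4 and 3. That is 46.2% and 53.8% called, near the 42.2% and 47% of all genes. The desmosomal cadherins Dsg2 (-1.22 ± 0.12 and -0.72 ± 0.11) and Dsc2 (-0.98 ± 0.11 and -0.58 ± 0.10) fell in both.

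For the antibody, 4 genes of the 7 lists were higher and 15 lower in FVB/N ventricle (3.01% and 11.3%, beside 4.43% and 4.57% of all genes), and 7 were higher and 5 lower in PKCε ventricle (5.26% and 3.76%, beside 5.08% and 3.74%). In FVB/N mice Dkk3, a Dickkopf relative, fell by 2.77 ± 0.51 on the log2 scale, and by 1.17 without the arrays with atrial markers (adjusted p = 0.0674). Sost (-0.82 ± 0.25) was lower and stayed called without those arrays (-0.77, adjusted p = 0.0274), but not with the Gapdh difference as a covariate (-0.75, adjusted p = 0.0589). In PKCε mice, Cdh11, a mesenchymal cadherin, was lower (-0.74 ± 0.19, adjusted p = 0.0112). There Rnf146, a regulator of Axin turnover (0.37 ± 0.09, adjusted p = 0.00424), and the planar polarity cadherin Celsr1 (0.33 ± 0.08, adjusted p = 0.00469) were higher. With the Gapdh difference as a covariate Celsr1 and Cdh11 stayed called and Rnf146 did not (0.15, adjusted p = 0.254). The antibody change differed between the lines for 3 of the 133 genes (2.26%, where 3.86% of all genes were called): Cdh13 (0.93 ± 0.17), Usp34 (0.70 ± 0.11) and Senp2 (-0.58 ± 0.17). Without the arrays with atrial markers Cdh13 (0.89, adjusted p = 0.0339) and Usp34 (0.64, adjusted p = 0.0075) stayed called and Senp2 (-0.59, adjusted p = 0.198) did not. Between the sexes, 12 were higher and 8 lower in females (9.02% and 6.02%, beside 8.67% and 7.12% of all genes). Among the higher were Ccn4 (1.19 ± 0.17), a CTGF relative, Dkk3 (1.67 ± 0.37), Nkd2 (0.69 ± 0.15) and Cdh11 (0.65 ± 0.14). The arrays with atrial markers are all from females except FG-3149-treated FVB/N replicate 8 and IgG-treated PKCε replicate 5. In IgG-treated FVB/N mice, where 5 of 10 arrays carry these markers, Dkk3 ran from -0.68 to 5.90.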

How the data were processed

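Left ventricle RNA of 44 mice was hybridised to Affymetrix 430A 2.0 arrays. Per the labels and the series' design text, the authors summarised the arrays with GCRMA and rescaled each probe set to its median in GeneSpring GX 7.3.1, and the deposited values are linear ratios. Brightness is lost, so levels cannot be compared between genes and the presence of a transcript or a marker cannot be read. The GCRMA version and the genome build are not given in the sources used here. Array medians lay between 0.954 and 1.03. Probe sets with 1 gene symbol (20393 of 22690) were used, and each gene was represented by its probe set with the largest SD over the 44 arrays (12394 genes).

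Log2 ratios were fitted with limma 3.58.1 (R 4.3.3) on group and sex over all arrays, with no filter and no pseudocount, and p-values were adjusted by Benjamini-Hochberg over all genes. Sex interactions were fitted on 8 cells of group and sex. The script was tested on simulated data. Each array is 1 mouse, and p-values measure the spread between mice. Counts of arrays above or below the median of a group, and overlap between groups, describe how the arrays lie and are not a further test. Overlap was not counted over all genes.

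Members, gene lists and tests were chosen with earlier results of these data known. The named genes are Sfrp2, every member called in a comparison of 2 groups, the 3 members of lowest p where few were called, up to 4 called genes of lowest p per pathway list and comparison, and the 8 genes most correlated with Sfrp2. The comparisons of the sexes within lines were added after the data were seen. Promoters come from RefSeq (GRCm38.p6). Other cell types' markers were counted as called genes and as mean log2 ratios.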

Additional observations from a re-analysis of the deposited data

Results flagged for a closer look

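6 group values stood apart from the rest of their group by Dixon's criterion, among 54 groups of 10 mice tested over 27 members, where chance gives about 2.7 (1 in 20). FVB/N replicate 2 with IgG was high for Wnt2 (1.44, next 0.45) and Sfrp1 (0.47, next -0.07), and it is among the arrays with atrial markers above 4. FVB/N replicate 3 with IgG, also among those arrays, was high for Dvl2 (0.54, next 0.12) and low for Wnt9b (-0.28, next -0.08). Among IgG-treated PKCε mice, replicate 2 was high for Dkk2 (0.32, next 0.03) and replicate 10, which carries lung markers, was high for Lrp5 (0.44, next 0.05). The groups of 12 were not tested for such values.

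The antibody change differed between the lines for Wnt5a by 0.79 (adjusted p = 0.000518 by limma), with all 12 FVB/N arrays below and 11 of 12 PKCε arrays above the median of their IgG-treated group. For Wif1 it differed by 0.78 (adjusted p = 0.0398), and at 0.0512 without FG-3149-treated FVB/N replicate 11.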

How the results depend on the processing

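The tally of single members takes in the refits, each member's lowest and highest leave-one-out change, and the stricter cutoffs of 0.01 and 1.5-fold. The stricter cutoffs recompute no value and can only keep or end a call. In this tally 804 entries kept direction and side of the threshold, 240 lost the call and 5 gained it. 1 changed sign (Wnt3a in PKCε against FVB/N with IgG, 0.0237 in males alone). For PKCε against FVB/N with IgG, the 16 calls became 9 of the 23 members still tested when genes with a low SD were left out, 9 with a Gapdh covariate, 7 in males alone and 6 at 1.5-fold. Over all genes, the 5235 calls became 3405, 3881, 2169 and 1058 in the same order. With FG-3149, the 18 became 8 in males alone, 11 with the run of mouse numbers as a random block, 11 at an adjusted p under 0.01 and 7 at 1.5-fold. The 5830 calls over all genes became 2829, 3466, 3876 and 748. For the antibody in PKCε mice, the 2 became 0 after quantile normalization, with the mean of probe sets, in males alone, without the arrays with atrial or with lung markers, with the run block, at 0.01 and at 1.5-fold, 1 with the replicate block, 1 with the Gapdh covariate (Wnt2, not Sfrp1 or Wnt5a), and 4 of 23 without genes of low SD. Over all genes, the 1093 calls became 726, 1051, 57, 528, 440, 476, 417, 112, 792, 480 and 925 in that order. For the antibody in FVB/N mice, the 6 became 2 in females alone and at 0.01, 1 without the arrays with atrial markers, and 0 in males alone, with the run block and at 1.5-fold. There the 1116 calls over all genes became 406, 458, 217, 57, 94 and 209, so the whole array lost calls as well. The difference between the lines fell from 2 to 1 with no sex term, in females alone, without the atrial or lung arrays, without FG-3149-treated FVB/N replicate 11, with the run block and at 0.01, and to 0 in males alone. Over all genes, its 479 calls became 395, 110, 127, 373, 421, 79, 186 and 37 in that order. Between the sexes, the 9 became 4 after quantile normalization and at 0.01, and 2 at 1.5-fold, and the 1956 over all genes became 1453, 875 and 129. The transgene by sex count rose from 0 to 2 without the atrial arrays, and from 10 to 343 over all genes. Fewer arrays enter the fits of 1 sex, and the causes of the other shifts were not tested. With each array left out in turn, the counts ran from 14 to 19, 13 to 20, 1 to 4, 4 to 9, 1 to 2 and 8 to 9 in the order above, and stayed at 0 for both sex interactions. The replicate numbers do not pair the mice: over 62 same-number pairs the median correlation was -0.00 (-0.30 to 0.30) and 4 of 44 arrays were closest to an array of their own number. With the number as a replicate block the counts were 15, 16, 1, 4, 2 and 8. The number of arrays, not depth, limits the precision.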
